A study of Mus musculus with 48 samples.

Results

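Small leucine-rich proteoglycans are secreted proteins of the connective tissue matrix. The 8 genes described here are Dcn (decorin), Lum (lumican), Bgn (biglycan), Ogn (osteoglycin), Prelp (prolargin), Aspn (asporin), Podn (podocan) and Omd (osteomodulin). They were chosen by name, with earlier results of these data known, from the 34586 genes of a table of unique molecular identifiers (UMIs). Each UMI counts 1 captured RNA molecule, and the table covers single cells of mouse organs. All 8 were in the table. Their UMIs were summed per mouse, organ and deposited cell type label, fibroblasts of the joint were compared with fibroblasts of skin and muscle, and mice with collagen-induced arthritis (CIA) were compared with healthy mice.

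The core proteins of this family carry leucine-rich repeats, bind collagen fibrils and influence how thick and how regularly spaced the fibrils become. Most members carry chondroitin, dermatan or keratan sulfate chains, and several bind growth factors of the TGF-beta and BMP families. Fibroblasts, chondrocytes, tendon cells and osteoblasts make them, and cleavage of these proteins is a known part of cartilage loss in arthritis.

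The samples were Seq-Well libraries, made by capturing single cells in small wells with barcoded beads, from joint, lung, limb muscle, skin and spleen. All mice were males of the DBA1/J strain aged 8 to 12 weeks: 6 CIA mice had received 100 µg of bovine collagen II in Freund's adjuvant and a booster on day 20, and 4 healthy control mice had received PBS. The 48 samples held 13240 cells, of which 12096 had a cell type label, and sample totals ran from 17748 to 1645734 UMIs. The labelled cells held a median of 675 UMIs, and 59 of 13164 barcodes occurred in more than 1 sample. Joint cells came from 3 healthy mice (H3, H4, H7) and 5 CIA mice (S1, S3, S5, S6, S8). The arthritis score was 8 in S1, S2 and S3, 4 to 5 in S5, 3 to 4 in S6 and 2 to 3 in S8.

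The fibroblast label covered 1322 cells, 603 in joint, 324 in skin, 377 in muscle and 18 in lung. Sums were used where a mouse had at least 10 fibroblasts in an organ, which left 6 mice for joint (3 healthy, 3 CIA), 9 for skin (4 healthy, 5 CIA) and 8 for muscle (4 healthy, 4 CIA). The joint of S6 (9 fibroblasts) and of S8 (4 fibroblasts) fell below that minimum. The label was checked against the 8 fibroblast genes with which the study named the type, none of them a member here. Between 7 and 8 of them had UMIs in every sum, and together they reached 19204 to 56564 counts per 1000000 UMIs of the same cells (CPM) in joint, 11894 to 42305 in muscle and 8607 to 29926 in skin. The joint of S3 had the lowest of the joint values, followed by H7 at 25516 CPM. On another list of 5 fibroblast genes S3 stood at 8087 CPM. That was above the healthy joints (2588 to 5512) and below S1 (14834) and S5 (14238). Results that rest on the joint of S3 are also given without it. RNA of other cell types was present in the same cells. Granulocyte genes reached 1393 to 29491 CPM in joint fibroblasts, 275 to 15534 in muscle and 0 to 493 in skin, and hemoglobin and other erythroid genes reached 10533 to 108969, 3224 to 144893 and 0 to 889.9 CPM in the same order. Their part in the results was not tested. Joint, muscle and skin were each digested with a different collagenase type, so that among these organs organ and enzyme cannot be told apart.

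Aspn, Omd and Ogn lie next to each other and in the same orientation on mouse chromosome 13 (GRCm38). Aspn spans chr13:49544443-49567565, Omd chr13:49582462-49592822 and Ogn chr13:49608046-49624501, all on the plus strand, with gaps of 14.9 kb and 15.2 kb. Dcn (chr10:97479609-97518143) and Lum (chr10:97565128-97572703) lie 47 kb apart on chromosome 10, also both on the plus strand. Prelp lies on the minus strand at chr1:133910304-133921414, Podn on the minus strand at chr4:108014791-108096445 and Bgn on the plus strand at chrX:73483602-73495933. RefSeq start-site windows (GRCm38.p6, 250 bases before to 50 after the start) were matched for 6 of the 8 members: Prelp, Podn, Aspn, Omd, Ogn and Bgn. The 3 windows of the chromosome 13 neighbours are shown because Ogn ranked the organs differently from its neighbours Aspn and Omd, as described further on. Each is printed 5′ to 3′ on the plus strand, and capitals mark matches, on either strand, to 5 short motifs: the TATA box (TATAAA), the CCAAT box, the GC box (GGGCGG), the motif bound by TEAD factors (GGAATG) and the motif bound by AP-1 (TGANTCA).
Aspn (chr13:49544193-49544492): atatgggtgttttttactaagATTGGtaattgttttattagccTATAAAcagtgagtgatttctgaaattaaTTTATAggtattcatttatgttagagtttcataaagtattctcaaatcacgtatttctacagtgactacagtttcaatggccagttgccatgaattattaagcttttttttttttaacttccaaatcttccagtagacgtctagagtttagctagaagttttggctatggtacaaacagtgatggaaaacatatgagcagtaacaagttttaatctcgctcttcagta
Omd (chr13:49582212-49582511): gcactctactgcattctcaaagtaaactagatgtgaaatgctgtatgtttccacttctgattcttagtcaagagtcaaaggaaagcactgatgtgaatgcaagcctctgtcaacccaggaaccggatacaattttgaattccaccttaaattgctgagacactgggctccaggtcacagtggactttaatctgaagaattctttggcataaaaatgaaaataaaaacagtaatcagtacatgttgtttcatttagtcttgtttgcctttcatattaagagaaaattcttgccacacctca
Ogn (chr13:49607765-49608064): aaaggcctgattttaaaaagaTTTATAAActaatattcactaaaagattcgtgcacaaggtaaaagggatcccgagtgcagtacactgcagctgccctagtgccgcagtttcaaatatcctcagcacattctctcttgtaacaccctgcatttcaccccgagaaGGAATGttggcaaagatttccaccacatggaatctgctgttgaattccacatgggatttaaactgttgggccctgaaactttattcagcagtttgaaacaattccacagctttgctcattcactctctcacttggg

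The Aspn window held 2 matches to the TATA box (1 on each strand) and 1 to the CCAAT box, and the Ogn window held 2 overlapping matches to the TATA box and 1 to the TEAD motif. No match was found in the Omd window. Of all 32544 windows of this length, 13.6% held the TATA box, 37.4% the CCAAT box, 35.9% the GC box, 14.6% the TEAD motif and 7.79% the AP-1 motif. The 3 windows were poor in G and C (31% for Aspn, 37.7% for Omd and 42.3% for Ogn, against a median of 53% over all windows), whereas the Bgn window had 63.7% and 3 matches to the GC box, of which neighbours can overlap. These letters are a description and do not show that a factor binds there.

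Transcripts of all 8 genes were found mainly in cells labelled fibroblasts. The share of a member's UMIs that lay in fibroblasts ran from 77.4% for Ogn to 85.5% for Prelp. Dcn was the most abundant with 15341 UMIs in the whole table, followed by Lum (3157), Aspn (1930), Bgn (1757), Ogn (846), Prelp (290), Omd (217) and Podn (63). A UMI counts a molecule by its 3′ end, so transcript length does not enter these counts. The cell types were named from the same cells, so this is a description without a test. In joint fibroblasts, 90.5% of cells held a Dcn UMI, 66.8% a Lum UMI, 59.7% a Bgn UMI and 50.2% an Aspn UMI. The share was 23.7% for Ogn, 19.6% for Prelp, 5.97% for Omd and 3.15% for Podn. After thinning every cell to 400 UMIs, these shares were 80.6%, 46.1%, 37.6%, 34.3%, 12.6%, 9.45%, 3.48% and 1.49% in the same order of genes.

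Dcn UMIs also occurred outside fibroblasts. Joint granulocytes, which are not known to make decorin, held a Dcn UMI in 18.2% of cells (9.35% after thinning) at a median depth of 830 UMIs, against 965 UMIs in joint fibroblasts. In muscle, 59.2% of cells labelled endothelial held one (40.8% after thinning, cells pooled over mice), with 85.6% in CIA mice and 18.1% in healthy mice, while only 0.541% of muscle B cells did. After thinning, the shares in muscle endothelial cells were 60.3% in CIA and 10.6% in healthy mice, at median depths of 903 and 764 UMIs. These shares count cells and not mice, and the mice contributed unequally. Over all cells of CIA muscle, S5 held 2652 Dcn UMIs (1887 in fibroblasts) and S6 held 1503 (953). S1 held 160 (147), S2 152 (142), S3 12 (10) and S8 0. Whether the disease states differed by mouse was not tested in these cells. Lung fibroblasts were only 18 cells from 7 mice and gave 7748 CPM of Dcn, 1550 CPM of Ogn and no Prelp UMI. No Dcn UMI was found in 3716 spleen cells, which allows a share of up to 0.0807% of cells with a UMI. This limit covers counting error only. In spleen the other members gave no UMI either, apart from 1 UMI of Aspn and 2 of Omd. By CPM, Dcn was higher in fibroblasts than in any other label of joint, lung, muscle and skin.

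**Figure D1:**
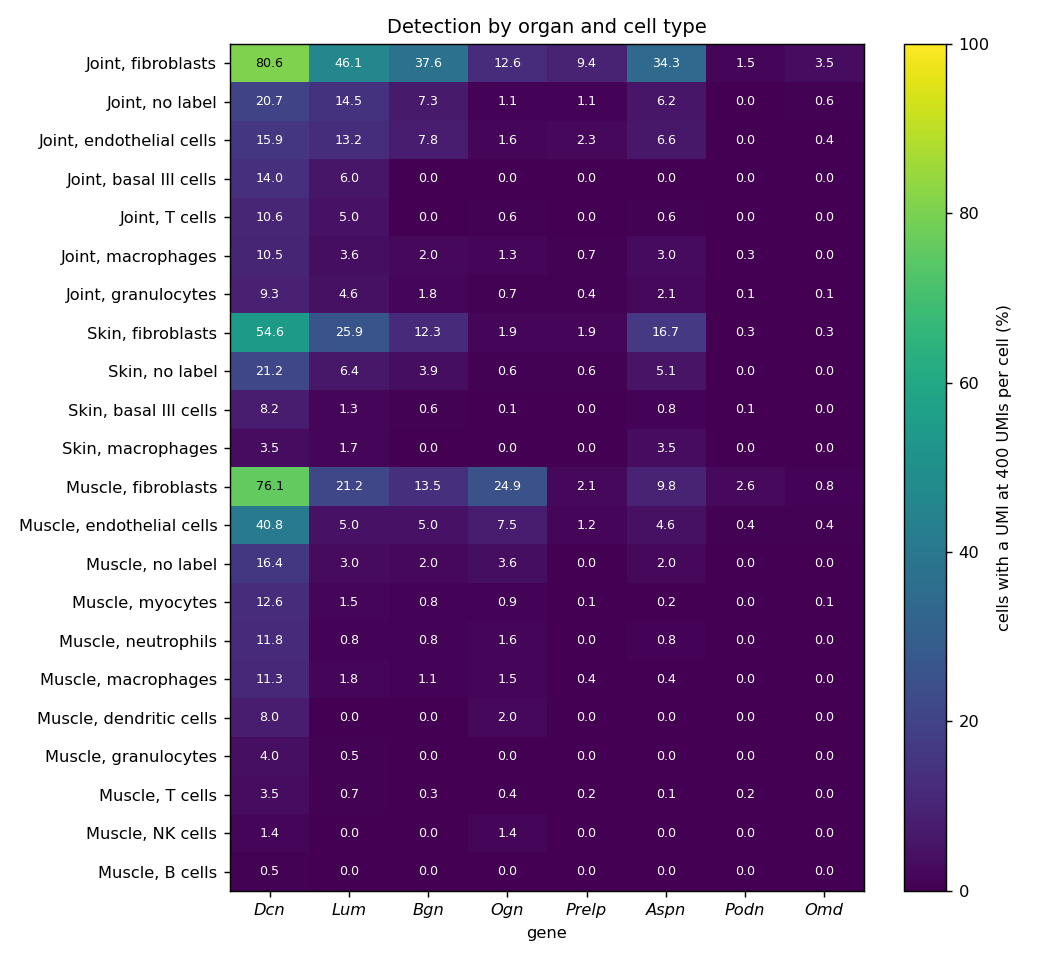
Members in cell type labels of the organs, shown by colour. For comparison, CPM values of Dcn from UMIs summed over mice are given here. Dcn reached 9984 CPM in joint fibroblasts, 9498 in muscle fibroblasts and 5205 in skin fibroblasts. It stood at 2054 CPM in muscle endothelial cells and 210.1 in joint granulocytes.

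Fibroblasts of the joint expressed more of these genes than fibroblasts of the skin. All 6 members that passed the filter on low counts were higher in joint (edgeR quasi-likelihood test with Benjamini-Hochberg adjustment over 1134 genes, threshold 0.05), where 16.3% of all genes tested were called higher in joint and 7.94% lower. The size of the difference ran from 2.7-fold for Dcn to 10.8-fold for Ogn. Dcn and Lum, which organise collagen fibrils, Bgn, which is also known as a danger signal for macrophages, and Aspn, an inhibitor of TGF-beta binding to cells, each had UMIs in every sum of both organs. Prelp and Ogn could pass the filter through joint and muscle alone, since 4 of 9 skin sums held no UMI of each, and the count of 6 is therefore no summary of the whole family. Podn and Omd did not pass it.

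Dcn CPM in joint fibroblasts was 15938, 21119 and 23627 in the healthy mice H3, H4 and H7, and 6128, 3701 and 8846 in the CIA mice S1, S3 and S5. In skin fibroblasts it ran from 1524 to 9416 with a median of 4173 over 9 mice. The ranges overlapped through the CIA mice, and Dcn was higher in joint than in skin of the same mouse in 5 of 6 mice. The log2 fold change of joint over skin was 1.44 (SE 0.33, edgeR adjusted p = 0.00213).

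Lum CPM in joint fibroblasts was 1060, 2214 and 1682 in healthy and 3127, 1136 and 3120 in CIA mice, and in skin it ran from 127 to 2540 with a median of 476. The ranges overlapped, but each of the 6 mice with both organs had more in joint. The log2 fold change was 1.53 (SE 0.44, edgeR adjusted p = 0.0128).

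Bgn CPM in joint fibroblasts was 554, 774 and 621 in healthy and 1664, 699 and 2159 in CIA mice. In skin it ran from 55.6 to 739.8 with a median of 310.3, so that the ranges overlapped although joint was higher in 6 of 6 mice. The log2 fold change was 2.16 (SE 0.38, edgeR adjusted p = 0.000122).

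Ogn, named for its isolation from bone and also called mimecan, showed the clearest order over the organs. Its CPM in joint fibroblasts was 348, 434 and 207 in healthy and 289, 335 and 355 in CIA mice. In skin it ran from 0 to 133 with a median of 24.8 over 9 mice, and in muscle from 589.8 to 2316 with a median of 914 over 8 mice. No range overlapped another: every muscle value lay above every joint value, and every joint value above every skin value. Of all genes tested, 2.03% had all joint values above skin and 2.47% all below, 0.529% and 0.353% did so in joint against muscle, and 1.23% lay above and 1.23% below in skin against muscle. Mean CPM was 1112 ± 538 in muscle (SD, n = 8), 328 ± 75.6 in joint (SD, n = 6) and 37.5 ± 45.7 in skin (SD, n = 9). Among the 8 members, Ogn was the only one whose ranges did not overlap between any of the organs.

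Prelp, which anchors basement membranes to the collagen below them, was at 206, 186 and 259 CPM in joint fibroblasts of healthy mice and at 326, 0 and 351 in CIA mice, the 0 being S3. In skin it ran from 0 to 55.6 CPM. The log2 fold change was 3.39 (SE 0.70, edgeR adjusted p = 0.000773). Aspn was at 2406, 821 and 776 CPM in healthy joints and at 1449, 393 and 2461 in CIA joints, and ran from 158 to 894 CPM in skin. It was higher in joint in 6 of 6 mice, with a log2 fold change of 1.70 (SE 0.40, edgeR adjusted p = 0.00255).

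**Figure D2:**
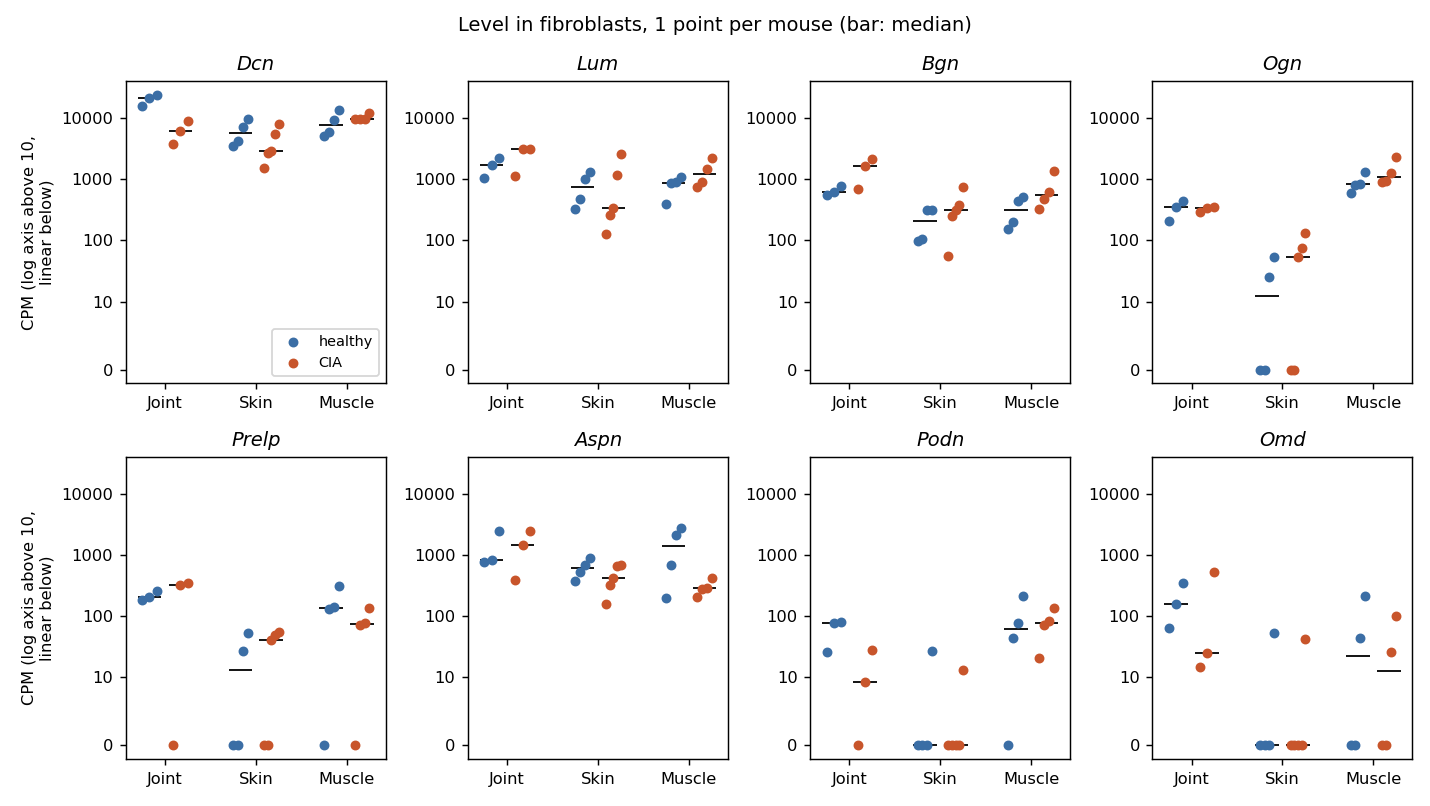
CPM of each member in fibroblasts of joint, skin and muscle (log scale above 10 CPM, linear below), with 1 point per mouse, healthy and CIA mice in separate colours. The 6 joint points of Ogn sit between 207 and 434 CPM, below all 8 muscle points and above all 9 skin points.

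The 2 rare members gave too few UMIs in skin for a fold change without a wide interval. Podn, whose protein is known to restrain the growth of smooth muscle cells, had 21 UMIs in joint and 2 in skin fibroblasts, a ratio of 4.25 after division by all UMIs (exact 95% interval 1.04 to 37.4, counting error only). In an edgeR fit without the filter its adjusted p was 0.141. Omd, whose protein binds hydroxyapatite and is made by osteoblasts, had 154 UMIs in joint and 2 in skin, a ratio of 31.1 (exact 95% interval 8.47 to 259, counting error only), with an edgeR adjusted p of 9.65e-09 without the filter. The joint UMIs of Omd were concentrated: they lay in 36 of 603 cells, 1 cell held 54 of them, and 114 came from mouse S1. Of the 154, 136 lay in the 110 joint fibroblasts that also carried 2 or more UMIs of cartilage or bone genes, where Omd stood at 756 CPM against 31.4 CPM in the other 493. By the same split, Prelp stood at 428 against 225 CPM, Dcn at 12025 against 9343, and Ogn at 206 against 371. Without those cells the log2 fold change of joint over skin was 1.17 for Dcn (edgeR adjusted p = 0.00617), 1.89 for Bgn (adjusted p = 0.00104) and 3.51 for Ogn (adjusted p = 6.42e-06).

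The direction held within each disease state for the 5 members that could be tested there (all but Prelp), but not each call. In healthy mice alone Dcn differed by a log2 fold change of 1.89 (edgeR adjusted p = 0.00616), and in CIA mice alone by 0.68 (adjusted p = 0.379). Lum in CIA mice alone gave 1.47 (adjusted p = 0.150), and Aspn in healthy mice alone gave 1.23 (adjusted p = 0.135). The sample titles end in CIA or 2CIA, which the labels do not explain and which is read here as 2 experiments. Within the one ending in CIA the log2 fold change was 2.36 for Dcn, 3.14 for Lum, 3.36 for Bgn and 1.57 for Aspn. S5 was the sole CIA mouse for joint there. The value was 6.46 for Ogn and 4.37 for Prelp, but these sizes rest on very few skin UMIs. Of the skin sums in that experiment, only H6 held an Ogn UMI (1), and only H7 and S5 held a Prelp UMI (1 each). The median log2 fold change over all genes tested was 0.115 with TMM scaling and −0.149 with plain library sizes, and the share of calls that were higher in joint was 67.3% and 41.7% in that order. All 6 members stayed higher in joint under both.

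Between joint and muscle, 1 of the 6 members tested passed the threshold, and it was lower in joint. This was Ogn, with a log2 fold change of −1.48 (SE 0.34, edgeR adjusted p = 0.0114) and a lower value in joint in 5 of 5 mice with both organs. Of all genes tested, 1.15% were called lower and 3% higher in joint. With the mouse as a block, the Ogn value was −1.52 (edgeR adjusted p = 0.0565) and Lum passed instead (1.32, adjusted p = 0.0472), while 20 genes in all were called in place of 47. The other members had positive fold changes that missed the threshold in the unblocked fit: 1.20 for Lum (adjusted p = 0.161), 1.27 for Bgn (0.0592), 1.28 for Prelp (0.239), 1.32 for Aspn (0.0710) and 0.47 for Dcn (0.481). Lum and Bgn were each higher in joint in 5 of 5 mice.

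The joint of S3 weighed on this comparison. Without it, Lum (1.47), Bgn (1.52), Prelp (1.59), Aspn (1.61) and Ogn all passed the threshold, 5 members in place of 1. Without H7 or without S1, no member passed. With plain library sizes the median over all genes tested moved from 0.096 to −0.118, and the share of calls higher in joint from 72.3% to 52.5%. Bgn ran from 153 to 1374 CPM in muscle with a median of 460.0, Lum from 393 to 2198 with a median of 894, Prelp from 0 to 306 and Aspn from 197 to 2691, and each range overlapped that of joint. In the unfiltered fit Podn gave −0.55 (edgeR adjusted p = 1.00) and Omd 2.30 (adjusted p = 0.0142), with the Omd UMIs distributed as described above.

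Between skin and muscle, Ogn and Dcn were lower in skin, which made 2 of 6 members tested, where 12% of all genes were called lower and 8.73% higher in skin. Ogn differed by a log2 fold change of −4.91 (SE 0.44, edgeR adjusted p = 2.33e-08) and was lower in skin in 7 of 7 mice. It had only 16 UMIs over the 9 skin sums, 10 of them in S2, and 4 sums held none. Ogn could pass the filter through muscle and joint alone. The count of 2 is therefore no summary of the family, and the size of the Ogn difference rests on few skin UMIs. Dcn differed by −0.97 (SE 0.31, edgeR adjusted p = 0.0264), from 5013 to 13550 CPM in muscle, and was lower in skin in 6 of 7 mice. With the mouse as a block, Dcn gave −0.81 (adjusted p = 0.132), and 142 genes in all were called in place of 235. Prelp gave −2.11 (edgeR adjusted p = 0.0570), Bgn −0.90 (0.124), Aspn −0.38 (0.566) and Lum −0.33 (0.671), which missed the threshold in this fit. Prelp passed it with DESeq2 (−2.15, adjusted p = 0.0438) and in edgeR without S3 (−1.93, adjusted p = 0.0267). Podn had 24 UMIs in muscle and 2 in skin, a ratio of 9.31 (exact 95% interval 2.31 to 81.3).

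Among the neighbours on chromosome 13, Aspn and Omd were highest in joint, and Ogn alone was highest in muscle. By mean CPM Aspn and Omd shared the order joint, muscle, skin. By median Aspn had skin above muscle, at 1135 CPM in joint, 532 in skin and 352 in muscle. In the same mouse Aspn was higher in skin than in muscle in 4 of 7 mice and lower in 3. Aspn stood at 1384 ± 881 CPM in joint (SD, n = 6), 855 ± 971 in muscle (SD, n = 8) and 525 ± 228 in skin (SD, n = 9). Omd stood at 188 ± 207, 48.3 ± 76.1 and 10.6 ± 21.1 CPM in the same order of organs and mice. The differences between the genes in these orders were not tested.

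**Figure D3:**
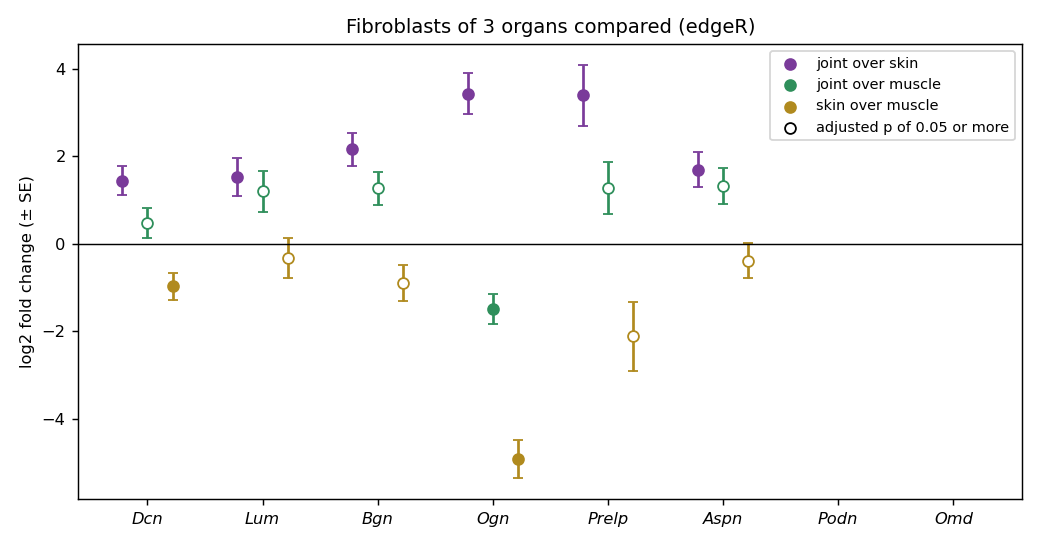
Log2 fold change of each member between fibroblasts of 2 organs, with bars of 1 SE, from the edgeR fit over 23 fibroblast sums. Filled points passed the adjusted p threshold of 0.05, and the Ogn points lie at 3.43 for joint over skin, −1.48 for joint over muscle and −4.91 for skin over muscle.

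The second question was whether arthritis changed these genes in the same cells. In joint fibroblasts none of the members was called between the disease states, where 1.68% of 1014 genes tested did (17 genes). Dcn was the member nearest to it. Its 3 CIA values (3701 to 8846 CPM) all lay below its 3 healthy values (15938 to 23627 CPM), as did those of 6.8% of all genes tested, while 18.1% had all CIA values above the healthy ones. The log2 fold change was −1.78 (SE 0.54, unadjusted p = 0.00807, edgeR adjusted p = 0.144). DESeq2 gave −1.87 with an adjusted p of 0.00152. S6 and S8, with under 10 fibroblasts each, stood at 7988 and 7881 CPM, within the range of the other CIA mice.

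Without S3 the Dcn log2 fold change in joint was −1.47 (edgeR adjusted p = 0.139). Within the experiment CIA it was −1.43 (edgeR adjusted p = 0.775) with S5 as the sole CIA mouse, and within the experiment 2CIA it was −1.65 (adjusted p = 0.631) with H3 as the sole healthy mouse. A lone mouse was assumed to vary like the others, so these values do not show whether the experiments gave the same result. With experiment as a term it was −1.56 (adjusted p = 0.194). On another scale the groups were not separate: Dcn UMIs per fibroblast were 13.8, 16.8 and 24 in healthy mice and 7.23, 4.54 and 15.6 in CIA mice. The CIA fibroblasts were the deeper ones, with median depths of 1020 to 1472 UMIs per cell in CIA and 679 to 838 in healthy mice. After thinning to 400 UMIs, a Dcn UMI was found in 90.4%, 92.6% and 97.4% of fibroblasts in healthy mice and in 70.3%, 57.1% and 86.2% in CIA mice.

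Granulocyte markers moved with the disease state in the same cells. The 4 genes of that list, all with UMIs in each mouse, summed to 4606, 1393 and 5900 CPM in healthy and to 13231, 29491 and 20638 CPM in CIA joint fibroblasts. Their part in the Dcn difference was not tested. In joint granulocytes the share of cells with a Dcn UMI was also lower in CIA mice, 8.44% against 27.8% after thinning, over 723 and 36 cells pooled over mice.

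Bgn had the opposite sign, with a log2 fold change of 1.13 (SE 0.47, unadjusted p = 0.0368, edgeR adjusted p = 0.256). The CIA value of S3 (699 CPM) lay within the healthy range, and without S3 the log2 fold change was 1.50 (edgeR adjusted p = 0.0492). Lum gave 0.47 (adjusted p = 0.657), Ogn −0.13 (0.895), Prelp 0.10 (0.964), Aspn 0.07 (0.967) and Omd −0.02 (0.990), each with overlapping ranges. Podn, tested without the filter, gave −1.53 (adjusted p = 0.719).

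In skin and muscle fibroblasts no member differed between CIA and healthy mice either. Of 349 genes tested in skin, 0% were called by edgeR, with 31 genes at an unadjusted p below 0.05 and 1 called by DESeq2. Of 173 tested in muscle, 0% were called by edgeR, with 11 at an unadjusted p below 0.05 and 3 called by DESeq2. Dcn gave −0.45 in skin (SE 0.44, edgeR adjusted p = 0.793) and 0.52 in muscle (SE 0.42, adjusted p = 0.755). The difference between the disease effects in joint and muscle was −2.22 for Dcn (SE 0.69, unadjusted p = 0.00343, edgeR adjusted p = 0.220) and 2.33 for Aspn (SE 0.84, unadjusted p = 0.00984, adjusted p = 0.298). Between joint and skin it was −1.28 for Dcn (adjusted p = 0.645). Aspn in muscle fell short of the filter, with 197 to 2691 CPM in healthy and 203 to 414 CPM in CIA mice, and gave −1.91 without it (unadjusted p = 0.00186, edgeR adjusted p = 0.666).

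**Figure D4:**
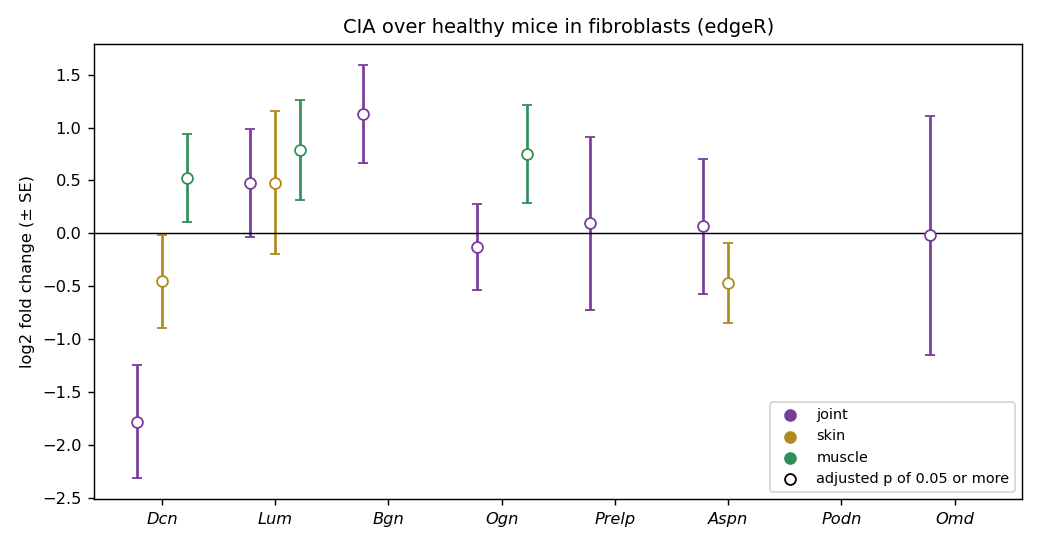
Log2 fold change of CIA over healthy mice for each member in fibroblasts of joint, skin and muscle, with bars of 1 SE. All adjusted p-values are above 0.05, and the joint points of Dcn and Bgn lie at −1.78 and 1.13.

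Summed over all joint cells, those without a label included, Dcn stood at 6092, 9876 and 12962 CPM in healthy mice. It stood at 2090, 2079, 2316, 2370 and 518 CPM in the CIA mice S1, S3, S5, S6 and S8. These groups did not overlap. The fit used labelled cells alone, where 4.15% of the 2364 genes tested had all CIA values below the healthy ones. The log2 fold change was −2.21 (SE 0.48, unadjusted p = 0.000384, edgeR adjusted p = 0.0908; DESeq2 adjusted p = 0.000723), in a comparison where 0.127% of genes were called by edgeR. Fibroblasts made up 38.8%, 48.2% and 50.7% of the healthy joint cells and 27.1%, 39.4%, 15.8%, 14.8% and 4.44% of the CIA joint cells, and in such sums fewer fibroblasts and less RNA per fibroblast cannot be told apart.

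The makeup of the family within joint fibroblasts was the last measure. Shares among the 8 genes do not depend on the UMIs of other genes. These shares were chosen for description after the values had been seen, and no test is given. Dcn took 77.2%, 81.3% and 86.4% of the UMIs of the 8 genes in healthy mice, and 45.3%, 58.9% and 51% in CIA mice. Lum took 5.13%, 8.53% and 6.15% in healthy and 23.1%, 18.1% and 18% in CIA mice. Bgn took 2.68%, 2.98% and 2.27% in healthy and 12.3%, 11.1% and 12.4% in CIA mice. Ogn took 1.69%, 1.67% and 0.757% in healthy and 2.14%, 5.34% and 2.04% in CIA mice. The groups did not overlap for any of these genes. The shares of a mouse add up to the whole, so a lower Dcn share raises the others, and these separations are not independent. In CPM, the joint ranges of Lum, Bgn and Ogn overlapped between CIA and healthy mice. Bgn UMIs per Dcn UMI were 0.0348, 0.0367 and 0.0263 in healthy joints and 0.271, 0.189 and 0.244 in CIA joints, S3 included. Aspn shares overlapped, at 2.84% to 11.6% in healthy and 6.26% to 14.2% in CIA mice. In skin the Dcn share was 75.7% to 81.3% in 4 healthy and 65.9% to 72.7% in 5 CIA mice, again without overlap, whereas Lum (5.86% to 13.9% against 3.19% to 21.5%) and Bgn (1.8% to 3.37% against 1.47% to 13.6%) overlapped. In muscle the Dcn shares overlapped, at 53.5% to 78.5% in healthy and 64.5% to 78.6% in CIA mice.

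**Figure D5:**
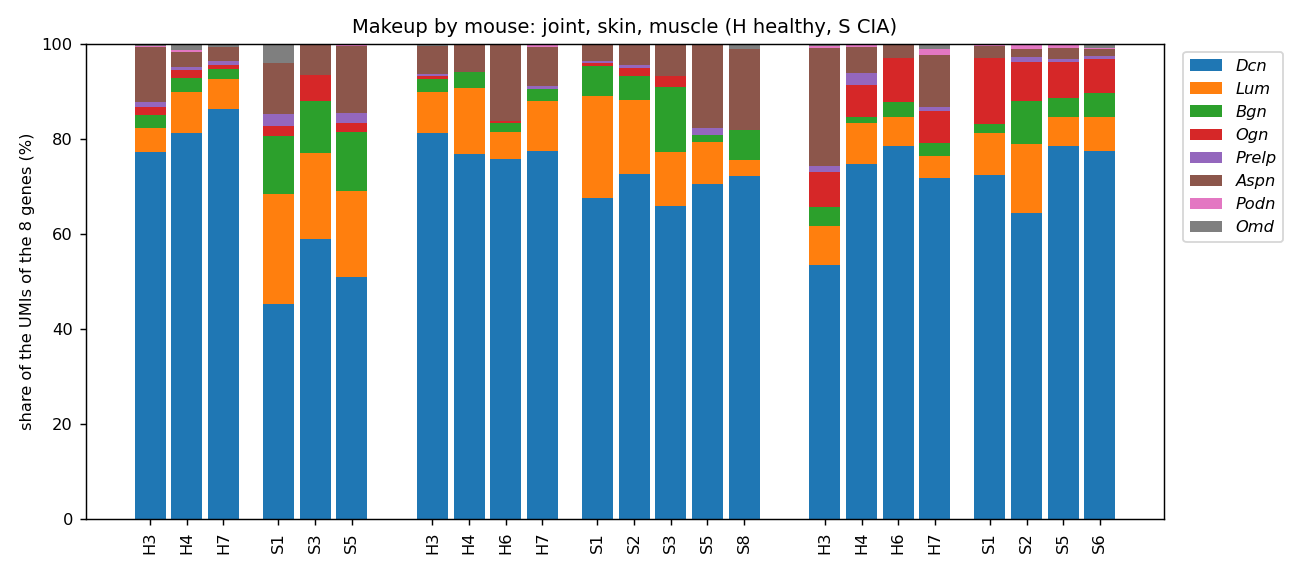
Share of each member among the UMIs of the 8 genes (percent) in joint, skin and muscle fibroblasts, with 1 bar per mouse. In joint, Dcn takes 77.2% to 86.4% in the 3 healthy mice and 45.3% to 58.9% in the 3 CIA mice.

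Other genes of the same matrix differed between the organs as well. All of the following counts stand beside 16.3% of all genes called higher and 7.94% lower in joint against skin. Of the other small leucine-rich proteoglycan genes, 3 of 9 listed passed the filter on low counts: Fmod, Chad and Ecm2. Fmod, which encodes fibromodulin and lies 116 kb from Prelp, had 467 UMIs in joint, 27 in muscle and 0 in skin fibroblasts, and Chad, chondroadherin, which is also in the chondrocyte marker list used here, had 170, 5 and 0. Against the floor of 3 UMIs over the skin group, Fmod was at least 62.9-fold higher and Chad at least 22.9-fold higher in joint (edgeR adjusted p = 0.000122 and 0.00135). Both passed the filter through joint and muscle alone, so their number is no summary of the list. Ecm2 rose in joint by a log2 fold change of 1.99 (edgeR adjusted p = 0.00853). The chondrocyte list of 13 genes summed to 586 to 7091 CPM in joint, 0 to 163 in muscle and 0 to 420.4 in skin fibroblasts, led by Col2a1 and with Matn1 at 0 in joint, and its part in these differences was not tested. Of 9 fibrillar and associated collagen genes tested, 6 rose in joint against skin, among them Col5a1 (2.53), Col14a1 (2.19) and Col5a2 (1.52), and none fell. The median over the 9 was 1.43, beside 0.115 over all genes tested. Of 5 other proteoglycan core genes, 3 rose and 1 fell, led by the lubricin gene Prg4 (4.09, edgeR adjusted p = 0.000309), with Srgn (2.27), a proteoglycan of blood cell granules, and Sdc2 (1.70), a syndecan, behind it.

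Of 7 protease genes tested, 3 rose and 1 fell in joint against skin, beside the same 16.3% and 7.94% of all genes. Mmp2 (2.00) and Adamts5 (1.64), which cleaves aggrecan, rose, and Mmp3 (−1.80), stromelysin, fell. The endocytic receptor gene Lrp1 rose (1.71), 1 of 2 tested ligand and receptor genes. None of the 22 genes for making and sulfating the sugar chains passed the filter on low counts. Against muscle, Chad (5.73, with no UMI in 7 of 8 muscle sums), Col5a2 (1.47), Prg4 (4.83), Lrp1 (1.26) and the hyaluronan receptor gene Cd44 (1.62) were higher in joint. In skin against muscle, Fmod was at least 6.98-fold lower against the same floor. Col14a1 (−2.44), Srgn (−3.08), Sdc2 (−1.29) and Adamts1 (−1.0) were lower, and Sdc4 (1.49), Mmp3 (2.51) and Cd44 (2.34) were higher. Between CIA and healthy joints 1 gene of these lists passed the threshold, Mmp3, with a log2 fold change of 4.03 (SE 0.72, edgeR adjusted p = 0.0282).

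The genes whose levels ran most alike with a member over the 23 fibroblast sums differed from member to member. By Spearman correlation of log2(CPM + 10), they were Serping1 (0.902) and Gsn (0.862) for Dcn, Abi3bp (0.796) and Gm23935 (0.793) for Lum, and Igfbp7 (0.82) and Igf1 (0.801) for Bgn. For Ogn they were Ly6a (0.873) and C7 (0.846), for Prelp Fmod (0.886) and Crip1 (0.836), and for Aspn Sdc2 (0.687) and Ecm2 (0.651). The sums shared mice, organs and depth, so these values only describe the order of the sums. No member was among the closest genes of another member.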

How the data were processed

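Single cells of 5 organs were profiled by Seq-Well from 4 healthy and 6 CIA mice. The authors aligned reads to GRCm38 with STAR, counted UMIs with Drop-seq tools and deposited the UMI counts unnormalized, with a cell type label for each cell that passed their filters on reads, genes and mitochondrial share. No further cell filter and no doublet caller was applied, so doublets may remain.

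UMI counts were summed per mouse, organ and label. Sums of at least 10 fibroblasts were tested with edgeR 4.0.16 in R 4.3.3 (quasi-likelihood test, TMM scaling, default filter on low counts, Benjamini-Hochberg adjustment over all genes tested, threshold 0.05). Organ contrasts came from 1 fit of organ by disease, averaged over healthy and CIA mice, and disease contrasts from a fit per organ. Members removed by the filter were taken from a fit of every gene with at least 1 count. CPM used all UMIs of the cells. On simulated counts with 200 genes changed by 2 on the log2 scale, the joint against skin fit recovered 84% of them over 869 genes, and the joint CIA fit 64.5% over 903 genes.

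The organs of 1 mouse are pairs by design. Deviations from the group means correlated between −0.156 and 0.163 over 18 pairs of sums from the same mouse. CIA and healthy mice are different animals and share only numbers, and mild and severe CIA cannot be told apart from experiment, as read from the endings CIA and 2CIA of the sample titles.

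All 8 members are named, and of each other list at most the 3 genes with the smallest p among those past the threshold. The members and lists were chosen with earlier results of these data known. Alternatives were DESeq2 1.42.0, other scalings, filters, cell minimums, mouse blocks, experiments and leaving out each mouse.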

Additional observations from a re-analysis of the deposited data

Results flagged for a closer look

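Of 32 groups of 4 or more mice tested for a single value far from the rest, 5 had one. Chance gives about 1 in 20 only for normally distributed values. A group at 0 in all mice but 1 is always flagged, so that rate does not apply to it. In muscle fibroblasts of CIA mice, S1 stood at 12161 CPM of Dcn, while the other 3 mice lay between 9607 and 9752 CPM. The other 4 flags rest on 1 UMI each in groups that were otherwise at 0: Omd in skin fibroblasts of the CIA mouse S8 (42.2 CPM) and of the healthy mouse H3 (52.9 CPM), and Podn in skin fibroblasts of the CIA mouse S2 (13.3 CPM) and of the healthy mouse H7 (26.4 CPM).

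Cells without a cell type label, which entered no test, also held Dcn UMIs. The share of unlabelled cells with a Dcn UMI was 22.9% in joint, 25% in skin, 18.7% in muscle and 3.7% in lung, while no unlabelled spleen cell had one. These cells were shallow, with median depths of 450.0 UMIs in joint and 414 in muscle.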

How the results depend on the processing

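Of 1053 values of members under other settings, 946 kept their direction and side of the threshold, 25 passed it newly, 24 lost it and 58 changed sign. None of these 58 was called in either fit. The count of members called was taken as the summary of a comparison after both it and the count of all genes called had been seen. The mouse block made organ comparisons paired: it left all 6 calls of joint against skin, exchanged Ogn for Lum in joint against muscle, and left 1 member in skin against muscle, with no other call changed. No paired analysis was possible for CIA against healthy mice because they are different animals. In each case below the cause was not tested. Healthy and CIA mice alone could be tested for 5 members, without Prelp. For joint against skin 3 of these 5 were called in CIA mice alone, in place of 6 of 6. For joint against muscle, in place of 1, there were 4 with every gene, 2 with at least 5 fibroblasts, 0 with at least 20, 0 in healthy and 2 in CIA mice alone, 3 with the 2 organs alone, 3 in the experiment CIA and 0 to 5 with each mouse left out. For skin against muscle, in place of 2, there was 1 with every gene, with at least 5 or 20 fibroblasts, with the block and in healthy or CIA mice alone, 4 in the experiment CIA and 1 to 3 with each mouse left out. In joint CIA against healthy mice there was 1 with DESeq2 and 0 to 1 with each mouse left out, and 1 with DESeq2 over all cells, in place of 0. The experiment CIA had S5 as the sole CIA mouse there, so no count is given for it. Over the settings other than leaving out mice, the log2 fold change of Omd in joint fibroblasts ran from −3.45 to 2.28. The share of joint fibroblasts with a Dcn UMI was 80.6% after thinning.

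The number of all genes called ran from 78 to 457 over the settings for joint against skin (275 reported), 8 to 118 for joint against muscle (47), 64 to 286 for skin against muscle (235), and 0 to 100.0 for CIA against healthy joint fibroblasts (17, with leaving out mice 0 to 43). It reached 12 in skin and 3 in muscle fibroblasts (0 each), 3 and 10 for the differences of joint effects from skin and muscle (0 and 2), and 66, 63 and 32 over all cells of joint, muscle and skin (3, 2 and 0).

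Sign changes in log2 fold change between organs were as follows. In joint against muscle, Aspn gave −0.012 in healthy mice and Dcn −0.64 in CIA mice alone, and in skin against muscle Aspn gave 0.63 in CIA mice alone and 0.27 in the experiment CIA. In joint CIA against healthy fibroblasts, Aspn gave −0.040 with RLE factors, −0.042 with DESeq2, −0.011 with at least 5 fibroblasts, −0.0051 without cells of cartilage or bone UMIs and −1.30 in the experiment 2CIA. Prelp gave −0.067 with DESeq2, −0.098 with at least 5 fibroblasts and −0.091 in the experiment 2CIA. Omd gave 0.11 with plain library sizes, 0.41 with every gene and 2.28 in the experiment 2CIA, and Ogn gave 0.28 with every gene. With each mouse left out, Ogn ran from −0.39 to 0.25, Aspn from −0.40 to 0.71, Omd from −3.08 to 1.00 and Prelp from −0.13 to 0.63. In skin, Lum gave −0.48 with experiment as a term and −1.58 in the experiment CIA, and −0.40 to 0.78 with each mouse left out, and Aspn gave 0.12 in the experiment CIA. In muscle, Lum gave −0.19 with at least 20 fibroblasts. For the difference between joint and skin effects, Lum ran from −0.34 to 0.84 and Bgn from −0.29 to 0.66 with each mouse left out. For joint and muscle effects, Bgn ran from −0.42 to 0.53 and Lum from −0.66 to 0.22, Bgn gave −0.034 with DESeq2 and Lum 0.65 with at least 20 fibroblasts. Over all joint cells, Lum ran from −0.16 to 0.61, Aspn from −0.75 to 0.077 and Omd from −1.05 to 0.42 with each mouse left out, Lum gave −0.19 and Aspn 0.16 in the experiment CIA, and Omd 2.29 in the experiment 2CIA. Over all muscle cells, Dcn ran from −0.071 to 1.45 and Lum from −0.40 to 1.65, and Aspn gave 0.42 in the experiment CIA. Over all skin cells, Lum ran from −0.49 to 0.77, gave −0.28 with experiment as a term and −0.93 in the experiment CIA. In joint the experiments CIA and 2CIA held 1 CIA and 1 healthy mouse, so their values have no spread in that arm. The experiment 2CIA was added as a setting after the data had been seen. Podn and Omd were limited by depth in skin, with 2 UMIs each, and 3 joints per group limited the disease comparison.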
